A study of Rattus norvegicus with 8 samples.

Results

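The genes described here are those of the red cell lineage and of haem synthesis, measured in fetal rat pancreatic islets. The list held 27 genes, of which 26 had a probe set assigned to that gene alone and were measured, among 14506 genes tested in all. The remaining gene, Ermap, was not measured and enters only the promoter search. The members fall into 18 genes known mainly from red cells and their precursors (17 measured), 7 enzymes of haem synthesis that other cells also make, and 2 genes of iron supply. The rule names the genes and uses no measured value, but earlier results of these data were known when it was made. Some genes counted as erythroid are also known from other cells: Tal1 and Epor from endothelium, Gata1 and Nfe2 from megakaryocytes, and Add2 from neurons.

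The arrays measured total RNA from islets of Sprague-Dawley rat fetuses at embryonic day 19. Per the labels, 4 pregnant dams had surgery to restrict fetal growth (intrauterine growth restriction, IUGR) and 4 had a sham operation, all on embryonic day 18. Islets were pooled over a whole litter and each pool was hybridised to 1 array, so the litter is the replicate, with 4 sham and 4 IUGR litters and no unoperated group. The labels name no sort, perfusion or red cell lysis, and blood cells of the fetuses could therefore be in the pools. Values are log2 expression as deposited, and a difference of 1 on this scale is a factor of 2. Where a level in bulk RNA is lower, fewer cells of a type and less RNA per cell cannot be told apart.

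Red cells mature from progenitors that respond to erythropoietin, under the transcription factors GATA1, TAL1 and KLF1, and in the fetus this takes place mainly in the liver. The maturing cells fill with globin and haem and assemble a membrane skeleton of spectrin, ankyrin and protein 4.2 beneath the anion exchanger band 3. They lose the nucleus and then, as reticulocytes mature, the remaining RNA. Haem synthesis begins with 5-aminolevulinate synthase, encoded by Alas2 in erythroid cells and by Alas1 elsewhere, and ends with the insertion of iron by ferrochelatase in the mitochondrion.

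The regulatory sequence of a few members is shown first, because GATA1 and KLF1 bind short words in promoters of this kind, and the erythroid-only genes are set against general haem enzymes in what follows. RefSeq promoters (rat assembly GRCr8) were held for 21 of the 27 listed genes. The 250 bases before each start were searched on both strands for GATA words (AGATAA, the form ending in G, AGATAG, the form beginning with T, TGATAA, and the form with both changes, TGATAG), for CACCC and for CCAAT. No word of one motif contains a word of another. The last 150 bases before the start are printed 5′ to 3′ on the gene's strand, with matches in capitals: Hbb and Hbb-b1 as the globins, Alas2 against Alas1 as the erythroid and general forms of the first enzyme, Klf1 as the factor and Epor as the receptor.
Hbb (chr1:167663722-167663871, minus strand): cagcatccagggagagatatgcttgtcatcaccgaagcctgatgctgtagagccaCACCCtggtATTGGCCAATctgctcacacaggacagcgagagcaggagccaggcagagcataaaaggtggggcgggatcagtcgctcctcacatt
Hbb-b1 (chr1:167643521-167643670, minus strand): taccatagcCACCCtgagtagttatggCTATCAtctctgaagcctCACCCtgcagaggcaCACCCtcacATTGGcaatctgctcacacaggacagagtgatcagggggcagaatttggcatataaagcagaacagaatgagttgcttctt
Alas2 (chrX:22895300-22895449, plus strand): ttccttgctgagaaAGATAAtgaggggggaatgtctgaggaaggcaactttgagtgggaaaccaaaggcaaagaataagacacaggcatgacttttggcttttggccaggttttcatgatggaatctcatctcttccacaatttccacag
Klf1 (chr19:40158652-40158801, minus strand): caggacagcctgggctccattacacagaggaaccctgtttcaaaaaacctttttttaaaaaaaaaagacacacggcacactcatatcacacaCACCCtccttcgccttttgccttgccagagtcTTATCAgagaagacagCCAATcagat
Epor (chr8:28770323-28770472, minus strand): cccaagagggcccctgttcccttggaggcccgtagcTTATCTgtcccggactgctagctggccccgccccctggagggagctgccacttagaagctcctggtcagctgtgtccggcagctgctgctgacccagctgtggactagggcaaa
Alas1 (chr8:115768643-115768792, minus strand): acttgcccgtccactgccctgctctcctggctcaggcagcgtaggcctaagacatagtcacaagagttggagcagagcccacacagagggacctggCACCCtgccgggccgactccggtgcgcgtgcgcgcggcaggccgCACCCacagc

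The GATA word began 136 bases before the start in Alas2, 123 in Hbb-b1, 114 in Epor and 26 in Klf1. Hbb and Alas1 had CACCC but no GATA word. Among erythroid-only genes with a promoter in the table, 11 of 14 had a GATA word in the 250 bases, and the exceptions were Hbb, Gata1 and Tal1. The 14 include Ermap, which was not measured and had both a GATA word and CACCC. Of the 6 haem enzymes of all cells with a promoter, 1 had a GATA word, and this was Fech, at 135 bases before the start. A GATA word was present in 28.5% of the 27457 genes in the RefSeq table. CACCC was found in 10 of the 14 erythroid-only genes and in 51.4% of all genes, and CCAAT in 7 of the 14 and in 36.1% of all genes. These matches describe letters in a window, and whether they are bound in these cells was not tested.

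In the comparison of IUGR with sham litters, all 17 measured erythroid-only genes were lower in IUGR islets, by 0.20 to 0.95 on the log2 scale with a median of 0.68, and none passed the test. Of the haem enzymes of all cells, 4 were lower and 3 higher as deposited, with a median difference of -0.13. This balance depended on scaling and on single litters: 6 of 7 were lower under each of 3 other scalings, and also without sham replicate 4, where the median was -0.43. Over all 14506 genes the median difference was 0.04, and 44.9% were lower. The erythroid-only median thus lay 0.55 below that of the enzymes. The size of the difference varied between litters, and IUGR replicate 1 had the lowest value of all 8 litters for each of the 17 genes.

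The test was limma with Benjamini-Hochberg adjustment of p-values over all 14506 genes. None of the 26 members reached an adjusted p of 0.05, against 0.248% of all genes (36 genes, 34 of them higher). At an unadjusted p under 0.05, 6 of 26 members were lower, against 10.7% of all genes, and 1 was higher, against 15.4%. The 6 were Hbb-b1, Ahsp, Alas2, Slc4a1, Hemgn and Slc25a37, and the higher one was Alas1. In 2 members the IUGR litters lay wholly below the sham litters, against 5.45% of all genes, and in 1 they lay wholly above, against 10.0%. The share of erythroid-only genes that were lower without overlap was 11.8%.

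**Figure D1:**
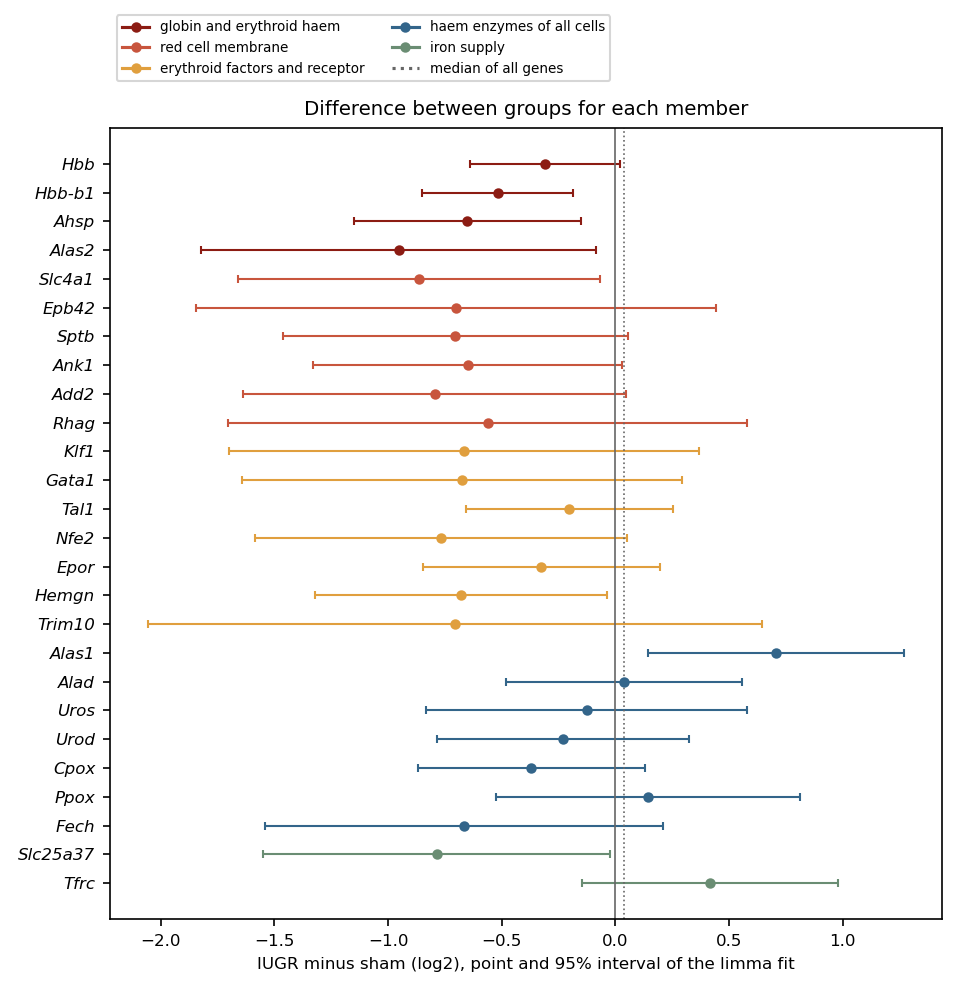
Difference between IUGR and sham litters (log2) for each of the 26 measured members, with the 95% interval of the limma fit, coloured by gene list; the dotted line marks the median of all genes. All 17 erythroid-only members lie to the left of 0, from -0.95 for Alas2 to -0.20 for Tal1, while Alas1 lies at 0.71 and Tfrc at 0.41; Alad and Ppox, just above 0, turn below 0 under other scalings of the arrays.

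The haemoglobin genes and their partners were lower in IUGR islets by 0.31 to 0.95, and Hbb-b1 and Alas2 separated the groups completely. Alas2, the erythroid form of the first haem enzyme, was at 12.68, 12.93, 12.58 and 12.67 in sham replicates 1 to 4, and at 10.91, 12.50, 12.51 and 11.14 in IUGR replicates 1 to 4. Every IUGR litter was below every sham litter, but IUGR replicates 2 and 3 were close to the sham values and replicates 1 and 4 far below. The difference was -0.95 ± 0.38 (SE, n = 4 litters per group), with a 95% interval from -1.82 to -0.08 and a limma adjusted p of 0.165, and the IUGR level was 51.6% of sham.

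Hbb-b1, an adult beta globin gene, was at 13.72, 13.86, 13.73 and 13.78 in the sham litters and at 12.99, 13.58, 13.44 and 13.02 in the IUGR litters. The sham litters were within a narrow band and all IUGR litters lay under it. With a difference of -0.52 ± 0.14 (SE), Hbb-b1 had the smallest adjusted p of the members, 0.120. Hbb, the other adult beta globin gene on the list, was at 13.85, 14.01, 13.89 and 13.78 in sham and at 13.30, 13.84, 13.80 and 13.36 in IUGR litters. IUGR replicates 2 and 3 overlapped the sham litters here, and the difference was -0.31 ± 0.14 (SE, adjusted p = 0.209). The beta globin genes are near-identical copies, so probes of one can bind RNA of the other, and the difference between Hbb and Hbb-b1 was not tested. Their values were near the highest value on each array, 14.15 to 14.44, where differences may be compressed.

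Ahsp encodes the chaperone that stabilises free alpha globin. Its values were 12.99, 13.25, 13.09 and 12.68 in sham litters and 11.85, 12.74, 12.66 and 12.16 in IUGR litters. Sham replicate 4 was the lowest sham litter and overlapped IUGR replicate 2. The difference was -0.65 ± 0.22 (SE, adjusted p = 0.138), with a 95% interval from -1.15 to -0.15.

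**Figure D2:**
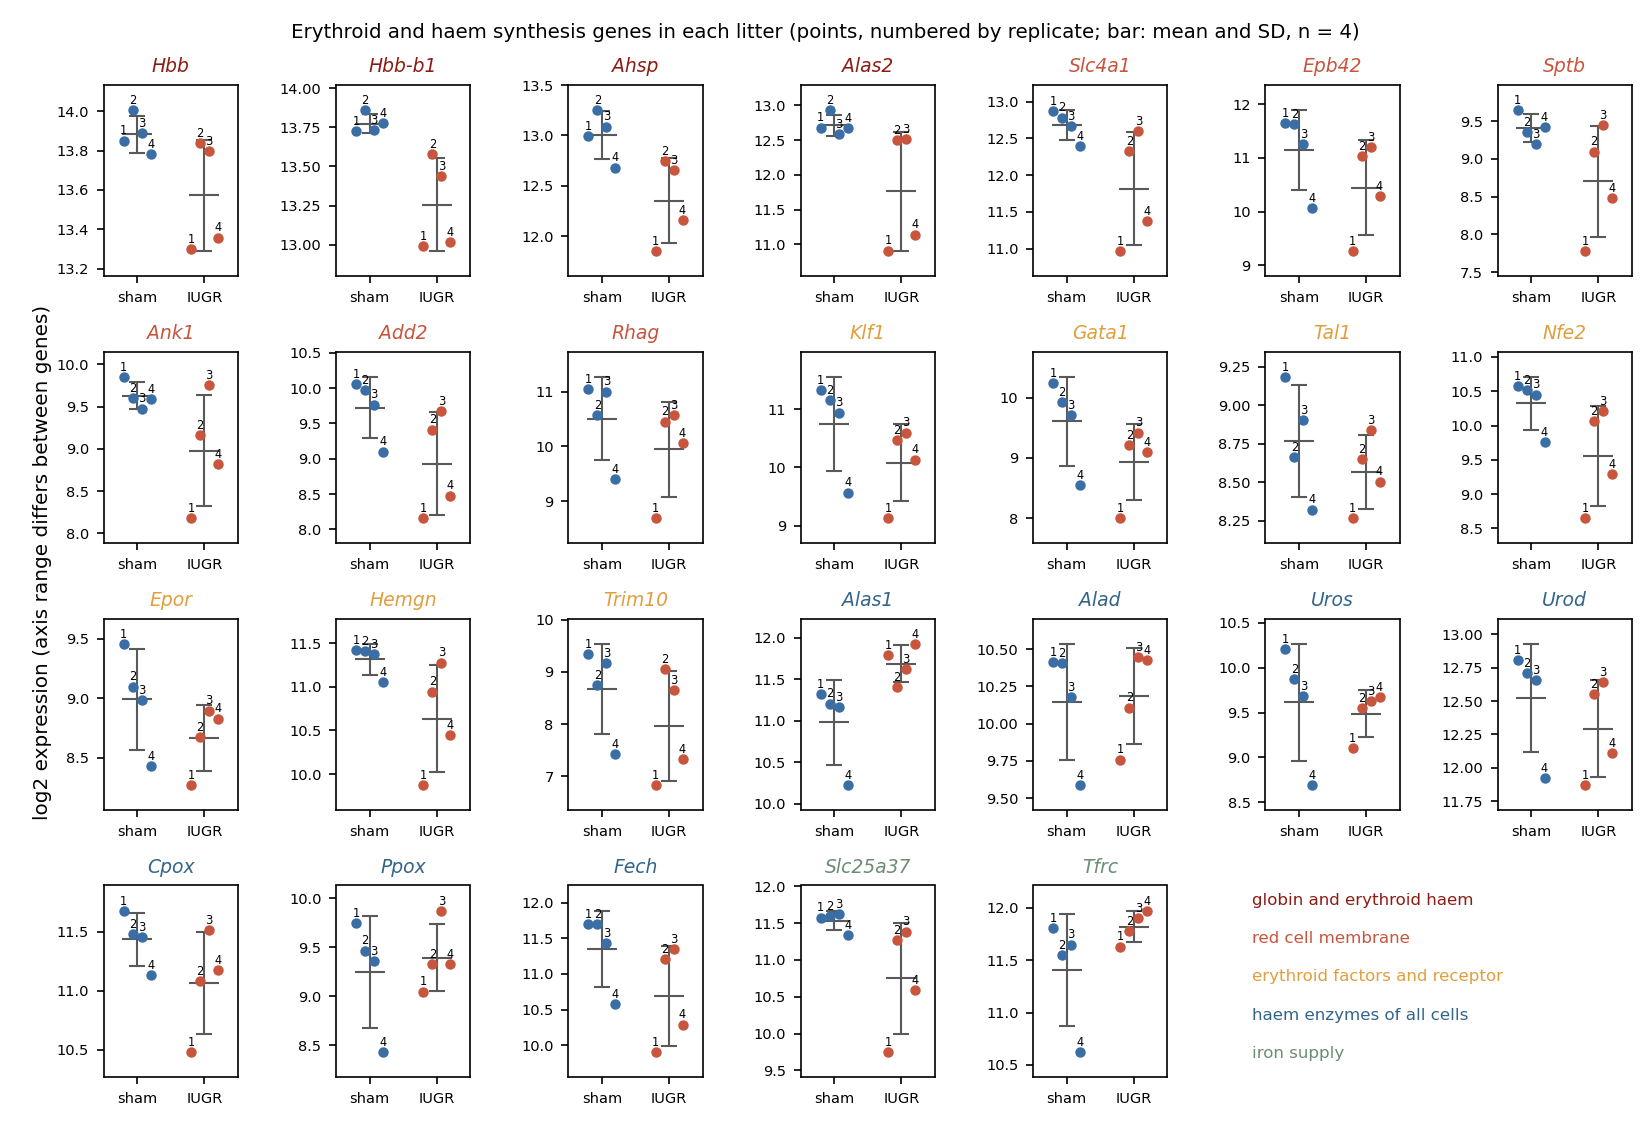
Log2 expression of the 26 measured members in each litter; points are litters numbered by replicate, the bar gives mean and SD (n = 4 litters per group), and the axis range differs between genes. For the erythroid-only members IUGR replicate 1 is the lowest point in each panel, and Alas1 is the panel in which all IUGR litters, from 11.41 up, lie above all sham litters.

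The genes of the red cell membrane were lower in all 6 measured cases, by 0.56 to 0.86 with a median of 0.70, and in each the groups overlapped. Slc4a1 encodes band 3, the chloride and bicarbonate exchanger that anchors the membrane skeleton. It was at 12.88, 12.78, 12.66 and 12.40 in sham litters and at 10.97, 12.32, 12.60 and 11.37 in IUGR litters. IUGR replicates 1 and 4 were about 1 log2 unit or more under every sham litter, and replicate 3 lay among the sham litters. The difference was -0.86 ± 0.35 (SE, adjusted p = 0.169), and the IUGR level was 54.9% of sham.

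Ank1 (ankyrin, which ties spectrin to band 3) was at 9.85, 9.60, 9.47 and 9.59 in sham litters and at 8.18, 9.16, 9.75 and 8.82 in IUGR litters. Sptb, the erythroid beta spectrin that forms the skeleton's network, was at 9.65, 9.35, 9.20 and 9.42 in sham litters and at 7.78, 9.10, 9.45 and 8.48 in IUGR litters. In both genes the 4 sham litters lay close together, and IUGR replicate 3 was as high as they were. The differences were -0.65 ± 0.30 (SE, adjusted p = 0.206) for Ank1 and -0.70 ± 0.33 (SE, adjusted p = 0.215) for Sptb.

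Add2, the beta adducin that caps actin in the skeleton, was at 10.06, 9.97, 9.77 and 9.10 in sham litters and at 8.16, 9.41, 9.67 and 8.48 in IUGR litters. Here sham replicate 4 lay outside the other sham litters and lay between the IUGR values. The difference was -0.79 ± 0.37 (SE, adjusted p = 0.210). Epb42 (protein 4.2) and Rhag (the Rh-associated glycoprotein) had the widest sham spread of the list, 11.15 ± 0.74 and 10.51 ± 0.76 (SD, n = 4), with sham replicate 4 at 10.06 and 9.41. Their differences were -0.70 and -0.56 (adjusted p = 0.384 and 0.480).

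The 7 erythroid factors and the receptor were lower as well, by 0.20 to 0.77 with a median of 0.68, and the groups overlapped in each. Gata1, the factor that drives most erythroid genes, was at 10.24, 9.93, 9.71 and 8.55 in sham litters and at 8.00, 9.22, 9.42 and 9.09 in IUGR litters. IUGR replicate 1 was the lowest, sham replicate 4 the next, and the other 3 sham litters were above all IUGR litters. The difference was -0.68 ± 0.42 (SE, adjusted p = 0.326).

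Klf1, the factor that activates the adult beta globin genes, followed the same order. Its values were 11.33, 11.16, 10.94 and 9.57 in sham litters and 9.13, 10.48, 10.60 and 10.13 in IUGR litters. The difference was -0.67 ± 0.45 (SE, adjusted p = 0.362), and without sham replicate 4 it was -1.06.

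Hemgn encodes hemogen, a nuclear protein of erythroid precursors. It was at 11.42, 11.41, 11.37 and 11.05 in sham litters and at 9.87, 10.94, 11.28 and 10.45 in IUGR litters. Only IUGR replicate 3 reached into the sham range. Hemgn differed by -0.68 ± 0.28 (SE, adjusted p = 0.175). Nfe2, a subunit of the factor that binds the globin control region, was at 10.58, 10.52, 10.45 and 9.75 in sham litters and at 8.65, 10.07, 10.21 and 9.30 in IUGR litters. Sham replicate 4 lay below IUGR replicates 2 and 3, and the difference was -0.77 ± 0.36 (SE, adjusted p = 0.211).

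Epor, the erythropoietin receptor, was at 9.46, 9.10, 8.99 and 8.43 in sham litters and at 8.27, 8.67, 8.90 and 8.83 in IUGR litters. The IUGR litters lay within a narrower band that overlapped sham replicate 4, and the difference was -0.33 ± 0.23 (SE, adjusted p = 0.374). Trim10, which takes part in terminal erythroid differentiation, differed by -0.71 with the widest spread of all members (8.67 ± 0.87 in sham and 7.96 ± 1.06 in IUGR, SD, n = 4 each). Tal1, the progenitor factor that endothelium also makes, differed least of the erythroid-only genes, by -0.20 ± 0.20 (SE, adjusted p = 0.521).

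As deposited and with all 8 litters, the enzymes of haem synthesis that all cells make ranged from -0.67 for Fech to 0.71 for Alas1. Alas1, the general form of the first enzyme, was at 11.32, 11.21, 11.16 and 10.23 in sham litters and at 11.79, 11.41, 11.62 and 11.93 in IUGR litters. Every IUGR litter was above every sham litter, with replicates 1 and 4, the litters low in Alas2, the highest. The difference was 0.71 ± 0.25 (SE, adjusted p = 0.142), with a 95% interval from 0.14 to 1.27, and 0.46 without sham replicate 4. The erythroid and the general form of the enzyme thus differed between the groups in opposite directions, each without overlap, and neither passed the test.

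Fech, the ferrochelatase that closes the pathway, was at 11.70, 11.70, 11.43 and 10.58 in sham litters and at 9.90, 11.21, 11.34 and 10.29 in IUGR litters. IUGR replicates 1 and 4 were below every sham litter and sham replicate 4 below IUGR replicates 2 and 3. Fech differed by -0.67 ± 0.38 (SE, adjusted p = 0.289), a size like that of the erythroid-only genes. Cpox, the coproporphyrinogen oxidase, was at 11.68, 11.48, 11.46 and 11.13 in sham litters and at 10.48, 11.08, 11.52 and 11.18 in IUGR litters. The groups overlapped, and the difference was -0.37 ± 0.22 (SE, adjusted p = 0.299).

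Urod, the uroporphyrinogen decarboxylase, was at 12.80, 12.71, 12.66 and 11.92 in sham litters and at 11.87, 12.55, 12.64 and 12.11 in IUGR litters. Sham replicate 4 was nearly as low as IUGR replicate 1, and the difference was -0.23 ± 0.24 (SE, adjusted p = 0.553). The other enzymes differed by less than their standard error: Uros, the uroporphyrinogen synthase, by -0.13 ± 0.31, Alad, the aminolevulinate dehydratase, by 0.04 ± 0.23, and Ppox, the protoporphyrinogen oxidase, by 0.14 ± 0.29 (SE, adjusted p = 0.809, 0.928 and 0.769). Alad and Ppox were below 0 after quantile normalization, median centring and cyclic loess (Alad at -0.16, -0.19 and -0.15, Ppox at -0.07, -0.09 and -0.07), so 6 of 7 enzymes were lower under each of those scalings. The enzyme median was then -0.31, -0.36 and -0.29, and the erythroid-only median -0.84, -0.91 and -0.86.

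The genes of iron supply went in opposite directions. Slc25a37 (mitoferrin, which carries iron into the mitochondria of erythroid cells) was at 11.57, 11.60, 11.63 and 11.34 in sham litters and at 9.75, 11.27, 11.38 and 10.59 in IUGR litters. Only IUGR replicate 3 reached the sham range, and the difference was -0.79 ± 0.33 (SE, adjusted p = 0.183). Tfrc, the transferrin receptor of all dividing cells and very abundant on erythroblasts, was at 11.80, 11.55, 11.65 and 10.62 in sham litters and at 11.63, 11.78, 11.90 and 11.97 in IUGR litters. The difference of Tfrc was 0.41 ± 0.24 (SE, adjusted p = 0.303) and 0.15 without sham replicate 4, so most of it rested on that litter.

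For many erythroid-only genes the litters of one group differed by as much as the groups did. IUGR replicate 1 was the lowest of the 8 litters in 17 of 17 erythroid-only genes and in 9.22% of all genes. IUGR replicate 4 was below every sham litter in 11 of the 17 (22.9% of all genes), replicate 2 in 6 (19.8% of all genes) and replicate 3 in 3 (18.6% of all genes), so that the count for replicate 3 was near that background. Replicates 1 and 4 were both below replicates 2 and 3 in 16 of the 17, with Epor the exception, in 3 of the 7 enzymes and in 19.9% of all genes. Sham replicate 1 was the highest litter for 13 of the 17 and sham replicate 2 for the other 4. The erythroid-only genes varied more within the IUGR group, with a median SD of 0.67 against 0.37 in sham, while all genes had a median SD of 0.13 against 0.23. In 4 of the 17, Klf1, Gata1, Tal1 and Epor, the sham SD was the larger.

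Sham replicate 4 stood apart from the other sham litters in some members and not in others. It was the lowest sham litter for 13 of the 17 erythroid-only genes, all 7 enzymes and both iron genes, and for 38.3% of all genes. For Hbb-b1, Alas2, Sptb and Ank1 it lay within the range of the other sham litters. Set against the mean of those litters, it was lower by a median of 0.10 in the globin and erythroid haem genes, 0.60 in the membrane genes, 0.76 in the factors and receptor and 1.00 in the enzymes, and by 0.03 over all genes. The largest gaps were -1.67 for Trim10, -1.58 for Klf1, -1.47 for Rhag, -1.45 for Epb42 and -1.41 for Gata1.

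**Figure D3:**
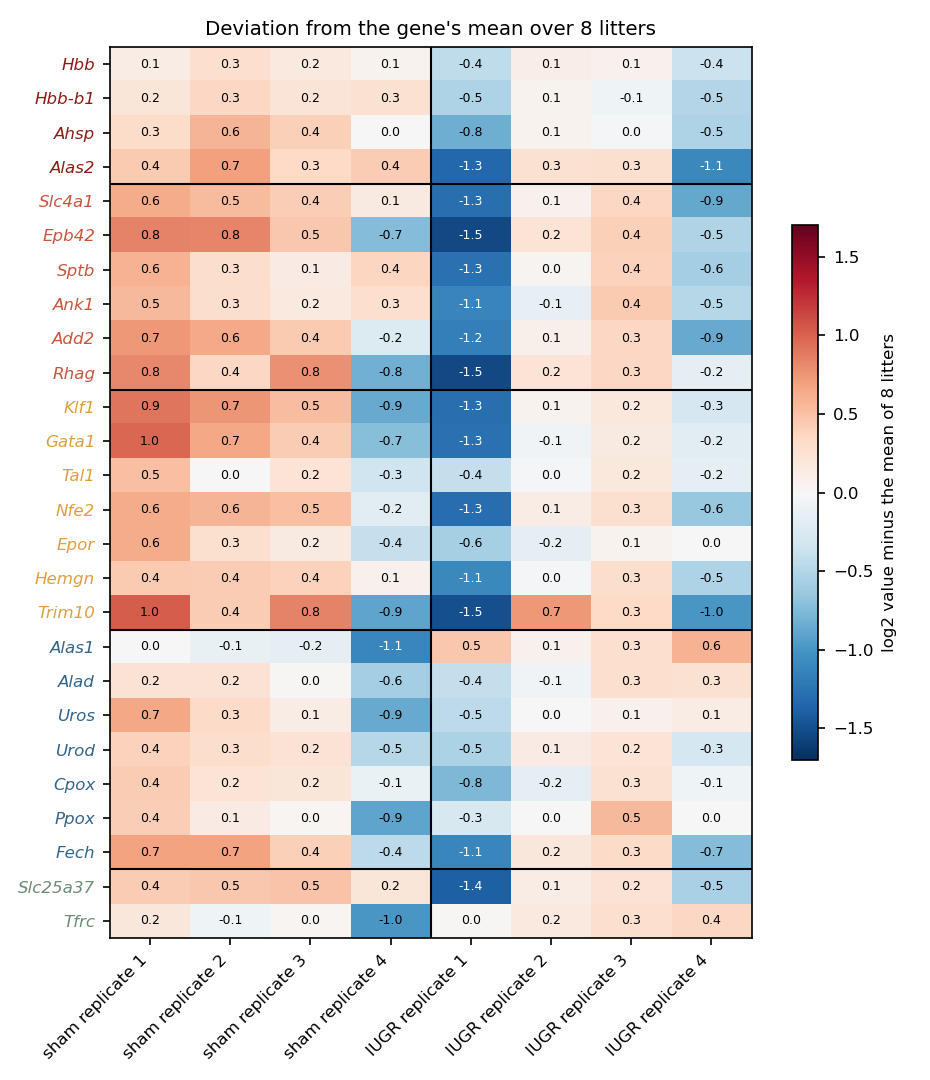
Log2 value of each member in each litter minus that gene's mean over the 8 litters, with lists separated by lines. IUGR replicate 1 is the darkest blue column in the erythroid lists, sham replicate 4 is blue for 6 of the 7 factors and for the enzymes but not for Hbb-b1, Alas2, Sptb and Ank1, and Alas1 and Tfrc are lowest in sham replicate 4.

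The size of the differences therefore depended on single litters. The erythroid-only median was -0.38 without IUGR replicate 1, -0.93 without sham replicate 4 and between -0.54 and -0.89 without any other litter, and 17 of 17 genes were lower each time. The median of the haem enzymes, -0.13 with all litters, was -0.43 without sham replicate 4, 0.072 without sham replicate 1, 0.0022 without IUGR replicate 1 and between -0.17 and -0.04 without any other litter. The enzyme median therefore changed sign with the litters included, and the erythroid-only median lay 0.39 to 0.72 below theirs. Without IUGR replicate 1 Alas2 differed by -0.67, Slc4a1 by -0.58, Klf1 by -0.35 and Gata1 by -0.37. Members lower at an unadjusted p under 0.05 numbered 6 with all litters, against 10.7% of all genes. They numbered 12 without sham replicate 4 (8.84% of all genes), 12 without IUGR replicate 3 (7.40%) and 9 without IUGR replicate 2 (7.21%). They numbered 2 when sham replicate 1 was left out (15.9%), and likewise for sham replicate 2 (7.09%) and for sham replicate 3 (6.27%). The count was also 2 with IUGR replicate 1 (7.05%) or with IUGR replicate 4 (7.38%) left out. A count of 2 of 26 members is near or below those shares of all genes. With array weights, which gave sham replicate 4 the lowest weight (0.196) and sham replicate 3 the highest (7.82), Ahsp at -0.63, Hbb-b1 at -0.40 and Alas1 at 0.46 passed the limma threshold (adjusted p = 0.017, 0.024 and 0.014), as did 6358 of all genes.

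Markers of other cell types also varied between the litters. Markers of islet endocrine cells, which check the labelled tissue, were well above the arrays' lowest values: Ins2 was at 13.90 ± 0.22 in sham and 13.76 ± 0.09 in IUGR litters (SD, n = 4), Gcg at 13.57 ± 0.27 and 13.64 ± 0.06, and Ins1 at 13.52 ± 0.35 and 13.32 ± 0.17. Acinar and liver markers reached similar levels, with Ctrb1 at 13.74 in sham and 14.04 in IUGR litters and Alb at 13.08 and 13.92. The islet marker levels therefore do not show what share of the pools was islet tissue. The islet list mean over 9 genes was 12.63 in sham replicate 4 and 11.27 to 11.93 in the other 7 litters, and the median difference between groups was 0.08. That median was 0.36 without sham replicate 4, with 6 of 9 genes higher. It was -0.08 after quantile normalization, -0.15 after median centring and -0.08 after cyclic loess, so its sign depended on the scaling. Leukocyte markers were lower in 9 of 11 genes by a median of 0.68 (0.41 without IUGR replicate 1), with list means from 9.85 to 10.44 in sham and from 9.12 to 10.12 in IUGR litters. Lyz2 (lysozyme) differed by -0.92, Fcer1g by -0.76 and Tyrobp by -0.76. IUGR replicates 1 and 4 were the lowest litters in that list, as they were in the means of the globin and membrane lists. None of the markers in any list passed the test, and the part of these cell types in the erythroid differences was not tested.

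Liver markers were read as a further list, which holds no red cell gene. All 10 were higher in IUGR litters, by a median of 1.68 (1.06 without sham replicate 4), with list means from 9.70 to 12.20 in sham and from 12.09 to 13.06 in IUGR litters. Alb (albumin) differed by 0.84, Afp (alpha-fetoprotein) by 0.91 and Tf (transferrin) by 1.12. Sham replicate 4 was the lowest litter of the liver list, and IUGR replicates 1 and 4, lowest for Alas2, were not low in it. Whether liver tissue contributed to the erythroid values was not tested. Endothelial markers were lower in 9 of 9 genes by a median of 0.23 (7 of 9 and 0.15 without sham replicate 4), with list means of 11.02 to 11.66 in sham and 10.60 to 11.23 in IUGR litters, and Cd34, Esam and Emcn at differences of -0.53, -0.23 and -0.12. Acinar markers were higher in 9 of 9 by a median of 0.91 (9 of 9 and 0.65 without sham replicate 4), with list means of 9.94 to 11.32 in sham and 11.31 to 12.21 in IUGR litters. Ctrb1, Cpa1 and Amy2a3 differed by 0.30, 0.28 and 0.40, and by 0.08, 0.06 and 0.05 without sham replicate 4. In most litters these genes were near the top of the arrays' range, where differences may be compressed. Without that litter the other acinar markers, which were dimmer, differed by 0.60 (Cel) to 1.43 (Sycn). Megakaryocyte and platelet markers, which share Gata1 and Nfe2 with red cells, had a median of 0.06 over 6 measured genes, with list means of 8.12 to 8.90 in sham and 8.28 to 9.35 in IUGR litters. Pf4, Gp9 and Ppbp differed by 0.05, 0.06 and -0.10, and under quantile normalization and median centring all 6 markers were lower. Under cyclic loess 4 were lower and 2 higher, and likewise without sham replicate 4.

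**Figure D4:**
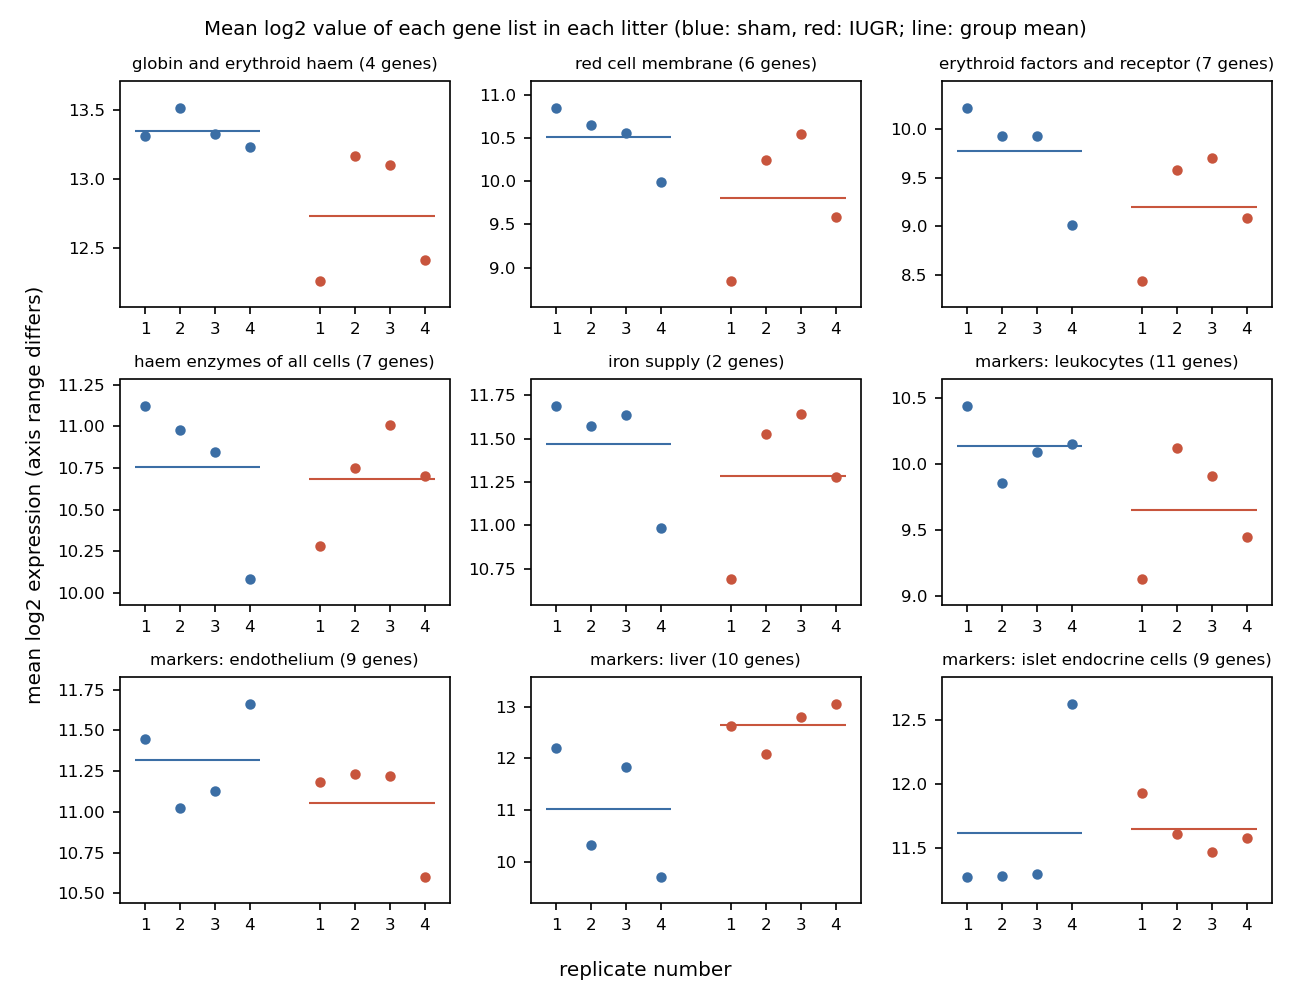
Mean log2 value of the measured genes of each list in each litter (blue sham, red IUGR, numbered by replicate; line at the group mean; axis ranges differ). The 3 erythroid lists and the leukocyte markers are lowest in IUGR replicate 1, the enzymes are lowest in sham replicate 4 at 10.08, and the liver markers are lowest in sham replicate 4 at 9.70.

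Further genes of the pathway were taken from 3 lists. Of 23 other red cell genes measured, 15 were lower and 8 higher with a median of -0.23, none past the threshold. At an unadjusted limma p under 0.05, 6 were lower, against 10.7% of all genes, and 1 was higher, against 15.4%. Hba-a3, an alpha-type globin gene, was at 13.02, 13.48, 13.30 and 12.85 in sham litters and at 11.73, 12.32, 12.80 and 11.67 in IUGR litters. The groups did not overlap, and the difference of -1.03 ± 0.27 (SE, adjusted p = 0.109) exceeded that of every member.

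Car2, a carbonic anhydrase of red cells and of other tissues, was at 11.59, 11.70, 11.45 and 11.36 in sham litters and at 9.98, 11.19, 11.09 and 10.58 in IUGR litters. Epb41 (protein 4.1 of the membrane skeleton) was at 12.35, 12.24, 12.13 and 12.04 in sham litters and at 11.24, 11.97, 11.94 and 11.30 in IUGR litters. Both were lower without overlap, and in both IUGR replicates 1 and 4 were the lowest litters. They differed by -0.82 ± 0.25 and -0.58 ± 0.19 (SE, adjusted p = 0.130 and 0.137).

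Of 22 other regulators of the lineage measured, 15 were lower and 7 higher with a median of -0.08, none past the threshold. At an unadjusted limma p under 0.05, 1 was lower, against 10.7% of all genes, and 2 were higher, against 15.4%. Nfe2l2 encodes NRF2, the general relative of Nfe2 that answers oxidative stress. It was at 11.51, 11.28, 11.48 and 11.10 in sham litters and at 11.89, 11.90, 11.86 and 12.05 in IUGR litters. All IUGR litters were above all sham litters, and the difference was 0.58 ± 0.11 (SE, adjusted p = 0.072).

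Kit, the receptor for stem cell factor on early progenitors and mast cells, differed by 0.42 ± 0.18 (SE, adjusted p = 0.191). Its values were 9.64, 8.94, 8.97 and 8.86 in sham litters and 9.30, 9.48, 9.70 and 9.62 in IUGR litters, so that only sham replicate 1 overlapped the IUGR litters. Mafg, a small Maf protein that pairs with Nfe2 and Nfe2l2, was at 8.52, 8.58, 8.74 and 8.63 in sham litters and at 8.38, 8.38, 8.51 and 8.36 in IUGR litters. The groups were adjacent without overlap, and the difference was -0.21 ± 0.08 (SE, adjusted p = 0.162).

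Of 29 genes of haem handling and iron measured, 8 were lower and 21 higher with a median of 0.15, none past the threshold. At an unadjusted limma p under 0.05, 0 were lower, against 10.7% of all genes, and 8 were higher, against 15.4%. The balance of lower and higher genes turned with the scaling, to 16 lower after quantile normalization, 17 after median centring and 15 after cyclic loess. Slc25a28 (mitoferrin 2, the form of other tissues) was at 10.18, 9.88, 10.21 and 9.48 in sham litters and at 10.80, 10.56, 10.64 and 10.54 in IUGR litters. The difference was 0.69 ± 0.17 (SE, adjusted p = 0.096) and 0.54 without sham replicate 4. It was without overlap, as in 10.0% of all genes that were higher, and opposite to that of Slc25a37. Mitoferrin and aminolevulinate synthase thus each had an erythroid form lower, and a general form higher, in the mean of the IUGR litters. Slc25a28 was named for its small p in these data, so this likeness was seen after the values and was not tested.

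Nfs1, the cysteine desulfurase of iron-sulfur cluster assembly, was at 10.27, 10.08, 9.91 and 9.79 in sham litters and at 10.65, 10.50, 10.53 and 11.07 in IUGR litters. Flvcr2, a transporter of the family that includes the haem exporter, was at 7.96, 7.59, 7.57 and 7.38 in sham litters and at 8.38, 7.72, 8.69 and 8.81 in IUGR litters. Nfs1 did not overlap between the groups and Flvcr2 did. Their differences were 0.68 ± 0.16 and 0.77 ± 0.24 (SE, adjusted p = 0.095 and 0.131). Hmox1, the inducible enzyme of haem breakdown, differed by 0.12 (adjusted p = 0.717). It and Epo, the hormone, at 0.15 (adjusted p = 0.539), were named for their place in the pathway after their values were seen. Without sham replicate 1, Kit (0.60), Nfe2l2 (0.64), Nfs1 (0.76) and Slc25a28 (0.78) passed the limma threshold (adjusted p = 0.015, 0.012, 0.022 and 0.026), among 2738 genes.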

How the data were processed

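The authors deposited log2 expression values from RMA (background correction, quantile normalization and probe summary), per the submitters' processing notes. Its version, the filters on probes and the build were not given in the sources used here. Of 29214 probe sets, 15310 had exactly 1 gene in the platform annotation, 323 several and 13581 none, and 15279 matched a RefSeq (GRCr8) gene identifier. The brightest probe set stood for each gene, giving 14506 genes. The 8 arrays correlated at 0.924 to 0.992 across genes, none were identical, and gene values had an interquartile range of 3.06 to 3.23 in sham replicates 2 to 4 and of 3.53 to 3.63 in the others. The medians over genes were 8.48 to 8.55 in those 3 arrays and 8.76 to 8.85 in the others. The values of the genes tested were thus distributed differently between the arrays after RMA. The distributions over all 29214 probe sets were not compared. At an unadjusted limma p under 0.05, 15.1% of all probe sets were lower and 11.5% higher, against 10.7% and 15.4% of the genes. The other scalings were computed over the genes tested. Whether the 8 arrays were normalized together is not stated, which bears on each difference between groups. Arrays have no read depth, and their number limits the precision.

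The log2 values were fitted with limma 3.58.1 in R 4.3.3 (functions lmFit and eBayes) on the 2 groups without covariates, with two-sided p-values adjusted by Benjamini-Hochberg over all genes and a threshold of 0.05. The script was tested on simulated data. Standard errors and 95% intervals are those of the fit, with 8.21 degrees of freedom. Figures were drawn with matplotlib 3.10.9. Percentages of sham are 2 to the power of the difference of mean log2 values.

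The members, the related and marker lists and the alternatives were chosen with earlier results of these data known. All members are named. Values in every litter are given for the globin and erythroid haem genes, Gata1, Klf1, Epor, Alas1, Fech, Tfrc and the 4 members of each other list with the smallest p. Each related list adds its 3 genes of smallest p and each marker list its brightest 3. Members were compared with lists of islet endocrine, leukocyte, endothelial, liver, acinar and megakaryocyte markers. Alternatives were quantile normalization, median centring, cyclic loess, array weights, leaving out the 30% of genes with the lowest signal, a robust trended prior, a replicate block, testing all probe sets or averaging those of 1 gene, and omitting 1 litter at a time. The replicate numbers are shared by the groups, but deviations of same-numbered litters from their group means correlated at -0.43, 0.10, -0.12 and -0.13, so the numbers were not taken to pair the litters.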

Additional observations from a re-analysis of the deposited data

Results flagged for a closer look

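Within a group of 4 litters, a highest or lowest value was examined where its gap to the next litter, divided by the group's range, exceeded Dixon's 95% critical value. Of 136 groups examined over the members, other named genes and list means, 15 exceeded it. Chance gives about 1 in 20 groups.

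Among the members 4 of 52 groups did so, each with sham replicate 4 as the lowest sham litter. Nfe2 was at 9.75 there with the next litter at 10.45, Hemgn at 11.05 with the next at 11.37, Alas1 at 10.23 with the next at 11.16, and Urod at 11.92 with the next at 12.66. The mean of the iron supply genes was 10.98 in that litter, with the next at 11.57.

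Other values of sham replicate 4 were as far out: Hbg1 was lowest of its group at 8.76, Pf4 lowest at 9.12, Amy2a3 lowest at 12.21, Ins2 highest at 14.24, Cd34 highest at 12.58 and the mean of the islet endocrine markers highest at 12.63. Elsewhere, Kit was highest in sham replicate 1 at 9.64, Mafg highest in IUGR replicate 3 at 8.51, Esam lowest in IUGR replicate 4 at 10.75, and the mean of the endothelial markers lowest in that litter at 10.60.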

How the results depend on the processing

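All 17 erythroid-only genes were lower under each of the 17 alternatives, and of the 26 members' differences 425 values kept their direction and side of the threshold, 14 turned sign (in 3 genes) and 3 came past the threshold. Some alternatives could change a member's p-value but not its difference, so its direction was fixed there. These were leaving out the dimmest genes, the robust trended prior, the replicate block, averaging probe sets and testing all probe sets. Genes past the limma threshold numbered 36, against 0 after quantile normalization, 1 after median centring, 0 after cyclic loess, 59 without the dimmest genes, 6358 with array weights, 3 over all probe sets, and 0 to 2738 with 1 litter left out (0 without sham replicate 2 or 3 or IUGR replicate 1 or 3, 2738 without sham replicate 1, 157 without sham replicate 4, 2 without IUGR replicate 4). At an unadjusted p under 0.05 these were 3789 genes, 3305 with quantile normalization and 3290 with cyclic loess. With the replicate number as a block, 0 genes passed and 2715 had an unadjusted p under 0.05. The block changed no member's call, and the lowest adjusted p of a member was 0.238. Members past the threshold were 0 except 3 with array weights, which were Ahsp, Alas1 and Hbb-b1.

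Alad turned from 0.04 to -0.16, -0.19, -0.15 and -0.014 under quantile normalization, median centring, cyclic loess and array weights, and ranged from -0.15 to 0.18 with 1 litter left out. Ppox turned from 0.14 to -0.071, -0.087 and -0.068 under those scalings and ranged from -0.13 to 0.31. Uros ranged from -0.43 to 0.072. The cause was not tested. Median centring moved the median of all genes from 0.04 to -0.19, and the erythroid-only median lay 0.71 below that of all genes before and after. At an unadjusted p under 0.05, 14 members were lower after quantile normalization (12.3% of all genes), 16 after median centring (30.6%) and 15 after cyclic loess (11.9%), against 6 as deposited.

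With 4 litters a group, single litters decide counts of calls. The labels name 1 litter per array. Each limma p-value sets the difference between groups against the spread between these litters, with a variance moderated over all genes. Values near the top of the arrays' range, such as those of the globins, limit what differences can show.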

Other observations

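Globin genes of the embryonic type were read separately, and were chosen after their values were seen. Hbg1 was at 12.41, 12.88, 12.94 and 8.76 in sham litters and at 10.46, 11.47, 11.42 and 11.21 in IUGR litters. Sham replicate 4 was below all other litters, and the other 3 sham litters were above all IUGR litters. The difference was -0.61 ± 0.88 (SE, limma adjusted p = 0.671), and without sham replicate 4 it was -1.60 and passed the threshold (adjusted p = 0.049). With array weights it was -1.62 (adjusted p = 0.011). Under array weights 10 of the named related genes passed, Hbe2 among them, as did 6358 of all 14506 genes. Hbe1 was at 13.33, 13.85, 13.42 and 12.03 in sham litters and at 12.71, 13.11, 13.31 and 12.60 in IUGR litters, again with sham replicate 4 the lowest. Hbe2 was at 7.39, 8.05, 7.38 and 6.79 in sham litters and at 6.51, 6.96, 6.92 and 6.83 in IUGR litters. Their differences were -0.23 and -0.60 (adjusted p = 0.708 and 0.174). In sham replicate 4 the embryonic-type globins were thus low together with Klf1, Gata1 and the haem enzymes, while the adult Hbb-b1, at 13.78, lay within the range of the other sham litters. The other adult beta globin gene, Hbb, was lowest of the sham litters there, at 13.78 against 13.85 to 14.01. Both adult genes were near the top of the arrays' range, where differences may be compressed.

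Rhag had 2 probe sets assigned to it, and their values were identical on all arrays.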
